A study of Homo sapiens with 26 samples.

Results

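The Krüppel-like factor (KLF) genes were examined as sites of glucocorticoid receptor (GR) binding in A549, an established cell line from a human lung carcinoma with features of the alveolar epithelium. The deposited table of GR binding holds 10740 regions, each 400 bp wide, of which 7574 had the start of a protein-coding gene (GENCODE v44, hg38) within 100 kb of their midpoint. For 34 of these regions that nearest start belonged to KLF2, KLF3, KLF4, KLF5, KLF6, KLF7, KLF9, KLF10, KLF13 or KLF15, and these are the KLF-linked regions described here. A link is one of distance, and whether a region acts on the gene was not measured. KLF6 had 8 linked regions, KLF4 had 5, KLF3 and KLF9 had 4 each, KLF5 and KLF10 had 3 each, KLF7, KLF13 and KLF15 had 2 each, and KLF2 had 1.

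GR was immunoprecipitated from wild-type A549 cells that had all been infected with an adenovirus and kept in serum-free medium before 1 h of treatment. One virus, Ad-IκBαΔN, carries an inhibitor of the inflammatory transcription factor NF-κB, and the control virus, Ad-GFP, carries green fluorescent protein. Cells of each virus were given 1 ng/ml of the inflammatory cytokine interleukin-1β with 300 nM of the synthetic glucocorticoid budesonide (IL1B+Bud), the same dose of budesonide alone (Bud), or neither (NS). The labels list 2 GR libraries in each of the 6 groups, and the table gives 1 value for each region and group. All 6 groups were infected, so there was no uninfected group of GR libraries, and all values come from 1 cell line. GR binding does not show how much IκBαΔN the cells made or which cell type they were, so neither label could be checked here.

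KLF proteins are transcription factors that bind GC-rich and CACCC-type DNA through zinc fingers at their C-terminal end, and members act as activators or repressors of overlapping sets of genes. Several are direct glucocorticoid targets. KLF9, mainly a repressor, and KLF15, a regulator of metabolism and of airway smooth muscle, are induced by glucocorticoids in many tissues, and their proteins act together with GR on later target genes. GR binds DNA as a dimer at the glucocorticoid response element (GRE), and NF-κB binds κB motifs near inflammatory genes, where GR can also be found.

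The 8 KLF-linked GRE matches and the κB matches at KLF4 and KLF9 are shown here, read from the hg38 reference on the forward strand. They are printed so that the motifs described below can be seen in context, and whether the letters bear on the signal was not tested. Capitals mark the match: the GRE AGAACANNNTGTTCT with up to 2 of its 12 fixed bases changed, AP-1 (TGACTCA on either strand), or the κB motif. The stretch upstream of KLF4 at 49.1 kb holds a κB match followed by a GRE match 2 bases later, and that 5.5 kb upstream of KLF9 holds an AP-1 match followed by a GRE match. The other lines hold 1 GRE each, except the last, which holds a κB match.
KLF9, 5.5 kb upstream, chr9:70420064-70420164: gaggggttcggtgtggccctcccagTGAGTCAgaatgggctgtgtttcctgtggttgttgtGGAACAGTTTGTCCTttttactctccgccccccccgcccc
KLF9, 66.2 kb upstream, chr9:70480884-70480944: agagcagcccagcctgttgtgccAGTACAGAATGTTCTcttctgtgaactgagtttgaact
KLF3, 42.2 kb upstream, chr4:38621965-38622025: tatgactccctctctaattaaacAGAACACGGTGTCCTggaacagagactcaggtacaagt
KLF13, 39.1 kb downstream of the start, chr15:31365888-31365948: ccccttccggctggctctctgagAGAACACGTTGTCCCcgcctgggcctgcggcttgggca
KLF15, 9.8 kb downstream of the start, chr3:126347572-126347632: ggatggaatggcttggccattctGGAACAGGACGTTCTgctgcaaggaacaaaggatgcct
KLF15, 72.8 kb downstream of the start, chr3:126284577-126284637: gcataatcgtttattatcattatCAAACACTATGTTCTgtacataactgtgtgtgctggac
KLF4, 28.2 kb upstream, chr9:107518752-107518812: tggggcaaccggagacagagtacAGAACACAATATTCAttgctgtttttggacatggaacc
KLF4, 49.1 kb upstream, chr9:107539560-107539620: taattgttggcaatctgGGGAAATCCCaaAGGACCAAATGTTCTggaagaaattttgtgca
KLF9, 7.4 kb downstream of the start, chr9:70407167-70407227: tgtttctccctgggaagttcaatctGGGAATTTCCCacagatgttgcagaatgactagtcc

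The value used is GR signal, obtained by reversing the deposited log2(signal + 1), on the scale the authors gave each group. It was read as mean coverage per base, a unit inferred from the steps in the values and not stated by the authors. Differences are log2 ratios of signal + 1, so they understate differences at low signal, and a region is called higher or lower at a log2 difference of at least 1, a 2-fold difference. With 1 value per group there is no SD and no test between groups, and no difference below has a replicate check. The scale between groups is uncertain, because signal multiplied by the region width (400 bp) moved in steps that differed between groups. In Ad-IκBαΔN cells the step was 1.5 with IL1B+Bud and 1 with Bud, and none was found with NS. In Ad-GFP cells the step was 3 with IL1B+Bud and 1 with Bud and NS. Each comparison was therefore also made with the groups re-centred to a common median, after quantile normalization, and with signal divided by the step. Where no step was found, it was taken as 1. A range given for a region runs over these 3 scalings and the values as deposited. Re-centring takes the median difference of all regions, which was 1.37 for Bud against NS in both viruses and 0.92 for added IL1B in Ad-GFP cells, to near 0.

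Under budesonide alone, GR signal was higher than in untreated cells at most KLF-linked regions. The median GR signal of the 34 regions was 22.4 in Ad-IκBαΔN cells given Bud and 7.92 in untreated Ad-IκBαΔN cells. In Ad-GFP cells it was 25.9 with Bud and 8.18 without treatment. In Ad-IκBαΔN cells 22 of the 34 regions (64.7%) were 2-fold higher and 0 lower, against 59.3% higher and 1.06% lower among all regions. In Ad-GFP cells 23 regions (67.6%) were higher and 3 (8.82%) lower, against 57.9% higher and 8.14% lower among all regions. The KLF shares lay near those of the whole table. All 22 regions called higher in Ad-IκBαΔN cells were also called higher in Ad-GFP cells, and the 1 called in Ad-GFP cells alone lay 9.6 kb downstream of the KLF3 start. Over the whole table, 90.7% of the calls in Ad-IκBαΔN cells were shared with Ad-GFP cells, and 93.0% of those in Ad-GFP cells with Ad-IκBαΔN cells. The KLF median difference for Bud against NS was 1.5 in Ad-IκBαΔN cells and 1.99 in Ad-GFP cells, beside 1.37 in each for all regions. After re-centring, 6 regions were higher and 7 lower in Ad-IκBαΔN cells, and 12 were higher and 8 lower in Ad-GFP cells. With quantile normalization these counts were 8 higher and 6 lower in Ad-IκBαΔN cells, and 8 higher and 5 lower in Ad-GFP cells. Across the 4 scalings, 15 regions (44.1%) lay above 0 in all of them in Ad-IκBαΔN cells and 19 (55.9%) in Ad-GFP cells, against 40.7% and 42.8% of all regions. Division by the step leaves Bud against NS as deposited, so only re-centring and quantile normalization could change it.

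When IL1B was added to budesonide, about as many KLF-linked regions were 2-fold higher in Ad-GFP cells as were not, and few differed in Ad-IκBαΔN cells. In Ad-IκBαΔN cells 2 of 34 regions (5.88%) were higher and 0 lower, against 9.65% higher and 0.94% lower among all regions. Both lay downstream of the KLF6 start, and with signal divided by the step 0 regions were higher and 2 lower. In Ad-GFP cells 17 (50%) were higher and 2 (5.88%) lower, against 48.9% higher and 6.07% lower among all regions. The median KLF difference was 0.25 in Ad-IκBαΔN cells and 1.05 in Ad-GFP cells, beside 0.26 and 0.92 for all regions. In Ad-GFP cells the split was 14 higher and 8 lower after re-centring, 12 higher and 7 lower with quantile normalization, and 13 higher and 14 lower with signal divided by the step. On the last of these scales the KLF median was -0.48 and that of all regions was -0.61, so its sign turned with the scale while 17 of the 34 regions still lay above the median of all regions. Across the 4 scalings 11 KLF regions (32.4%) were 2-fold higher in every one in Ad-GFP cells, against 24.2% of all regions, and 2 (5.88%) were 2-fold lower in every one, against 6.07%. In Ad-IκBαΔN cells both KLF counts were 0, against 0.624% higher and 0.475% lower of all regions. The lower counts in Ad-GFP cells were those as deposited, for the KLF regions and for all regions (652). The other scalings shifted this comparison downwards and removed none of them, so they are no added check on the lower calls.

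**Figure D1:**
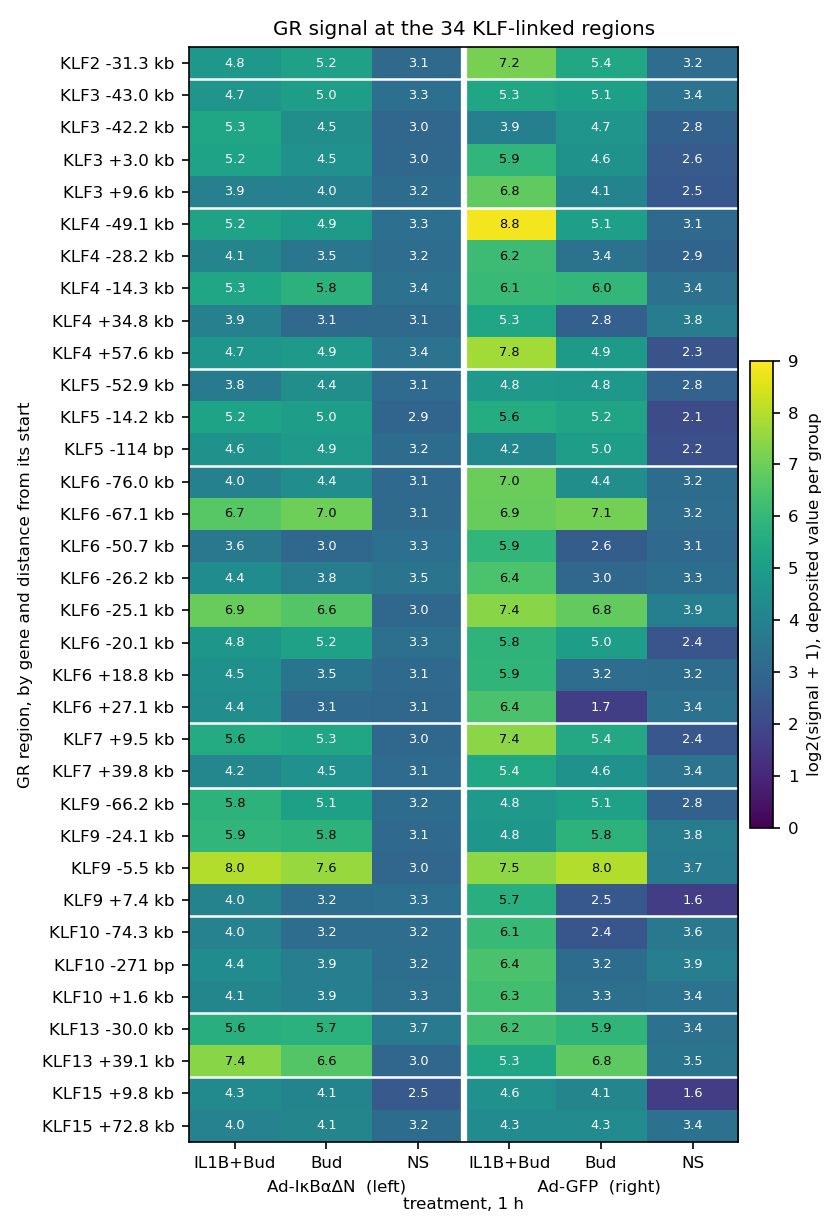
GR signal on a log2(signal + 1) colour scale at the 34 KLF-linked regions (rows, named by gene and signed distance of the midpoint from the gene start, negative upstream) in the 6 groups (columns, 1 deposited value each, no replicate spread). The row 5.5 kb upstream of KLF9 is bright in all 4 budesonide-treated groups (signal 177 to 252), and the row 49.1 kb upstream of KLF4 is bright only in Ad-GFP cells given IL1B+Bud (signal 453).

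Between the viruses, the KLF-linked regions differed little under budesonide alone and often when IL1B was present. With Bud, 1 of 34 regions (2.94%) was 2-fold higher in Ad-IκBαΔN than in Ad-GFP cells and 0 lower, against 4.02% higher and 0.0186% lower among all regions. With IL1B+Bud, 3 regions (8.82%) were higher and 19 (55.9%) lower in Ad-IκBαΔN cells, against 5.97% higher and 46.5% lower among all regions. The KLF split became 6 higher and 12 lower after re-centring, 5 higher and 11 lower with quantile normalization, and 6 higher and 11 lower with signal divided by the step. The response to added IL1B (IL1B+Bud against Bud, Ad-IκBαΔN minus Ad-GFP) differed upwards by at least 1 at 4 regions (11.8%) and downwards at 18 (52.9%), against 7.98% and 47.4% of all regions. The median of this difference was -1.19 over the KLF regions and -0.84 over all regions. Re-centring gave -0.27 for the KLF regions and 0.08 for all regions, with 6 regions upwards and 13 downwards. Under all 4 scalings the response was at least 2-fold larger in Ad-IκBαΔN cells at 4 regions (11.8%), against 7.98% of all regions, and at least 2-fold smaller at 12 (35.3%), against 24.6%. The counts of larger responses were those as deposited, also for all regions (857). The other scalings shifted this difference upwards, so they are no added check on the larger ones.

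**Figure D2:**
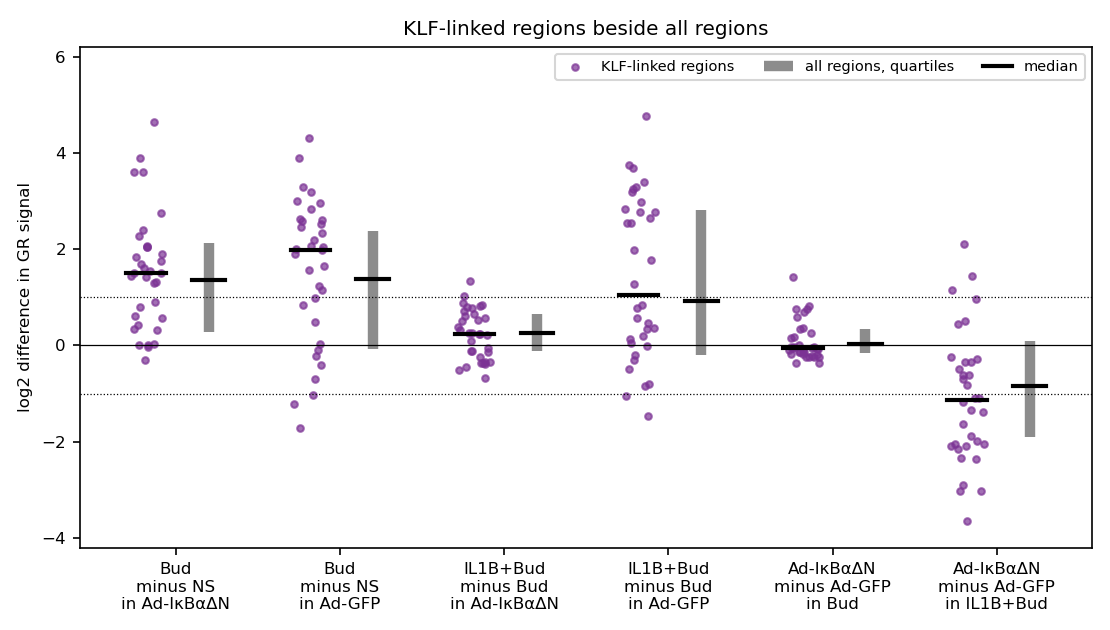
Log2 differences in GR signal for each comparison (horizontal axis), with points for the 34 KLF-linked regions, grey bars for the quartiles of all regions and black lines for the medians, on the scale as deposited with 1 value per group. The KLF median is 0.25 beside 0.26 for all regions for added IL1B in Ad-IκBαΔN cells and 1.99 beside 1.37 for Bud against NS in Ad-GFP cells. For added IL1B in Ad-GFP cells it is 1.05 beside 0.92, and both turn sign when signal is divided by the step.

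KLF9, the repressor that glucocorticoids induce in many tissues, had the KLF-linked region with the highest GR signal under budesonide alone. This region (chr9:70419957-70420356) lies 5.5 kb upstream of the KLF9 start in an exon of a long non-coding RNA gene and holds the AP-1 and GRE matches shown above. GR signal there was 252 with IL1B+Bud, 193 with Bud and 6.77 with NS in Ad-IκBαΔN cells. It was 177 with IL1B+Bud, 249.9 with Bud and 11.7 with NS in Ad-GFP cells. All 4 budesonide-treated groups were far above both untreated groups. Bud against NS gave a log2 difference of 4.64 in Ad-IκBαΔN cells (range 3.09 to 4.64) and 4.30 in Ad-GFP cells (1.55 to 4.30). The region ranked 104 of 10740 in signal in Ad-IκBαΔN cells given Bud and 84 in Ad-GFP cells given Bud. With IL1B added it ranked 65 in Ad-IκBαΔN cells and 473 in Ad-GFP cells. Added IL1B gave 0.38 in Ad-IκBαΔN cells, a sign that turned with the scale (-0.20 to 0.38), and -0.49 in Ad-GFP cells (-2.06 to -0.49).

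Of the 2 regions farther upstream of KLF9, the one at 24.1 kb was 2-fold lower in Ad-GFP cells when IL1B was added. At 24.1 kb upstream (chr9:70438538-70438937, intergenic, with an AP-1 match), GR signal was 59.5 with IL1B+Bud, 55.8 with Bud and 7.46 with NS in Ad-IκBαΔN cells, and 26.3, 55.3 and 12.6 in Ad-GFP cells in the same order. The group given IL1B+Bud after Ad-GFP was the only budesonide-treated one below 50, with a log2 difference from Bud of -1.04 (-2.53 to -1.04). At 66.2 kb upstream (chr9:70480668-70481067, intergenic), where the GRE match has the single substitution A3T, counted from 1 at the first base of the motif, signal was 55.1 with IL1B+Bud, 33.3 with Bud and 8.17 with NS in Ad-IκBαΔN cells. In Ad-GFP cells it was 27.6 with IL1B+Bud, 34.3 with Bud and 6.01 with NS. Added IL1B thus went with more signal in Ad-IκBαΔN cells, by 0.71 (0.14 to 0.71), and with less in Ad-GFP cells, by -0.30 (-1.79 to -0.30).

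In the KLF9 intron, 7.4 kb downstream of the start (chr9:70407023-70407422), the region with the κB match went the opposite way in Ad-GFP cells, with more signal when IL1B was added. GR signal was 15.4 with IL1B+Bud, 8.45 with Bud and 8.66 with NS in Ad-IκBαΔN cells, and 50.01 with IL1B+Bud, 4.61 with Bud and 2.12 with NS in Ad-GFP cells. Only the Ad-GFP cells given IL1B+Bud stood well above the rest. Added IL1B gave 3.18 in Ad-GFP cells (1.17 to 3.18) and 0.79 in Ad-IκBαΔN cells (0.20 to 0.79). The KLF9 locus thus held regions that were higher and lower with IL1B side by side, with 4.23 on the log2 scale between the extremes in Ad-GFP cells (2.96 to 4.23). The same pair of regions in Ad-IκBαΔN cells lay 0.70 apart (0.12 to 0.73).

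KLF15, the glucocorticoid-induced metabolic regulator, had 2 weaker regions, each with a GRE match. In its intron, 9.8 kb downstream of the start (chr3:126347403-126347802), GR signal was 18.5 with IL1B+Bud, 15.6 with Bud and 4.67 with NS in Ad-IκBαΔN cells, and 22.6 with IL1B+Bud, 16.2 with Bud and 2.12 with NS in Ad-GFP cells. Both viruses had more signal with budesonide, by 1.55 in Ad-IκBαΔN cells (0.19 to 1.55) and 2.46 in Ad-GFP cells (1.06 to 2.46). Both differed little between Bud and IL1B+Bud as deposited, but the sign turned with the scale. Added IL1B gave 0.23 in Ad-IκBαΔN cells (-0.31 to 0.23) and 0.46 in Ad-GFP cells (-1.01 to 0.46). The GRE of this region has the substitutions A1G and T10C and lies within a base of the region's centre. The region 72.8 kb downstream of the start (chr3:126284411-126284810, in an exon of a long non-coding RNA gene) had 14.8 with IL1B+Bud, 16.0 with Bud and 8.10 with NS in Ad-IκBαΔN cells, and 19.1, 19.1 and 9.21 in Ad-GFP cells in the same order. Its differences with Bud, 0.90 in Ad-IκBαΔN cells and 0.98 in Ad-GFP cells, stayed below 2-fold and turned sign with the scale. Added IL1B gave -0.11 in Ad-IκBαΔN cells (-0.65 to -0.11) and -0.0018 in Ad-GFP cells (-1.45 to -0.0018). In Ad-GFP cells it was 2-fold lower with re-centring (-1.04), quantile normalization (-1.17) and division by the step (-1.45).

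KLF13, known as a regulator of chemokine expression in T lymphocytes, had the KLF-linked region with the lowest added-IL1B difference in control cells. The region lies in the KLF13 intron 39.1 kb downstream of the start (chr15:31365752-31366151), and its GRE match carries the substitutions T13C and T15C. GR signal was 169.6 with IL1B+Bud, 94.3 with Bud and 6.83 with NS in Ad-IκBαΔN cells. In Ad-GFP cells it was 38.5 with IL1B+Bud, 108 with Bud and 10.2 with NS. The 2 viruses had similar signal with Bud and stood far apart with IL1B+Bud, where the region ranked 140 of 10740 in Ad-IκBαΔN cells and 6447 in Ad-GFP cells. Added IL1B gave 0.84 in Ad-IκBαΔN cells (0.26 to 0.84) and -1.46 in Ad-GFP cells (-2.97 to -1.46), and the difference between these responses was 2.30 (2.30 to 3.23). The other KLF13 region, 30.0 kb upstream (chr15:31296649-31297048, intergenic), had 48.6 with IL1B+Bud, 52.8 with Bud and 12.0 with NS in Ad-IκBαΔN cells and 75.1, 58.0 and 9.33 in Ad-GFP cells in the same order. It was high in every budesonide-treated group, although its difference for Bud against NS in Ad-IκBαΔN cells, 2.05 as deposited, became -1.12 with quantile normalization.

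KLF4, a factor of epithelial differentiation and vascular restraint of inflammation that is also used to reprogram cells, had the highest signal of any KLF-linked region. This region, 49.1 kb upstream (chr9:107539390-107539789, intergenic), is the only 1 of the 34 (2.94%) with both a GRE and a κB match, which 135 of all 10740 regions (1.26%) have. GR signal was 35.1 with IL1B+Bud, 29.0 with Bud and 8.80 with NS in Ad-IκBαΔN cells, and 453 with IL1B+Bud, 33.0 with Bud and 7.48 with NS in Ad-GFP cells. With Bud alone the viruses were alike in level, and only the Ad-GFP cells given IL1B+Bud were far higher. Under IL1B+Bud the region ranked 3077 of 10740 in Ad-IκBαΔN cells and 37 in Ad-GFP cells. Added IL1B gave 3.74 in Ad-GFP cells (2.16 to 3.74) and 0.27 in Ad-IκBαΔN cells, where the sign turned with the scale (-0.30 to 0.27).

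The other KLF4 regions comprised 3 that were 2-fold higher with added IL1B in Ad-GFP cells as deposited and 1 that was not. The region 57.6 kb downstream of the start (chr9:107432728-107433127, in an intron of LINC01509) had 25.7 with IL1B+Bud, 28.3 with Bud and 9.75 with NS in Ad-IκBαΔN cells, and 215 with IL1B+Bud, 29.1 with Bud and 4.06 with NS in Ad-GFP cells. Like the lead region it already had signal with Bud alone in both viruses, and added IL1B gave 2.84 in Ad-GFP cells (1.27 to 2.84). The region 28.2 kb upstream had 15.9, 10.7 and 8.36 with IL1B+Bud, Bud and NS in Ad-IκBαΔN cells, and 70.5, 9.42 and 6.48 in Ad-GFP cells. The region 34.8 kb downstream of the start had 14.3, 7.71 and 7.67 in Ad-IκBαΔN cells in the same order, and 38.6, 5.82 and 12.9 in Ad-GFP cells. Both had little signal with Bud and were highest in Ad-GFP cells given IL1B+Bud. Added IL1B gave 2.78 (1.08 to 2.78) at the first in Ad-GFP cells and 2.54 (0.63 to 2.54) at the second, which was below 2-fold with quantile normalization. The region 14.3 kb upstream had 37.9, 54.6 and 9.57 in Ad-IκBαΔN cells and 68.1, 61.7 and 9.32 in Ad-GFP cells, and its log2 difference with added IL1B in Ad-GFP cells, 0.14 as deposited, turned sign with the scale (-1.40 to 0.14).

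**Figure D3:**
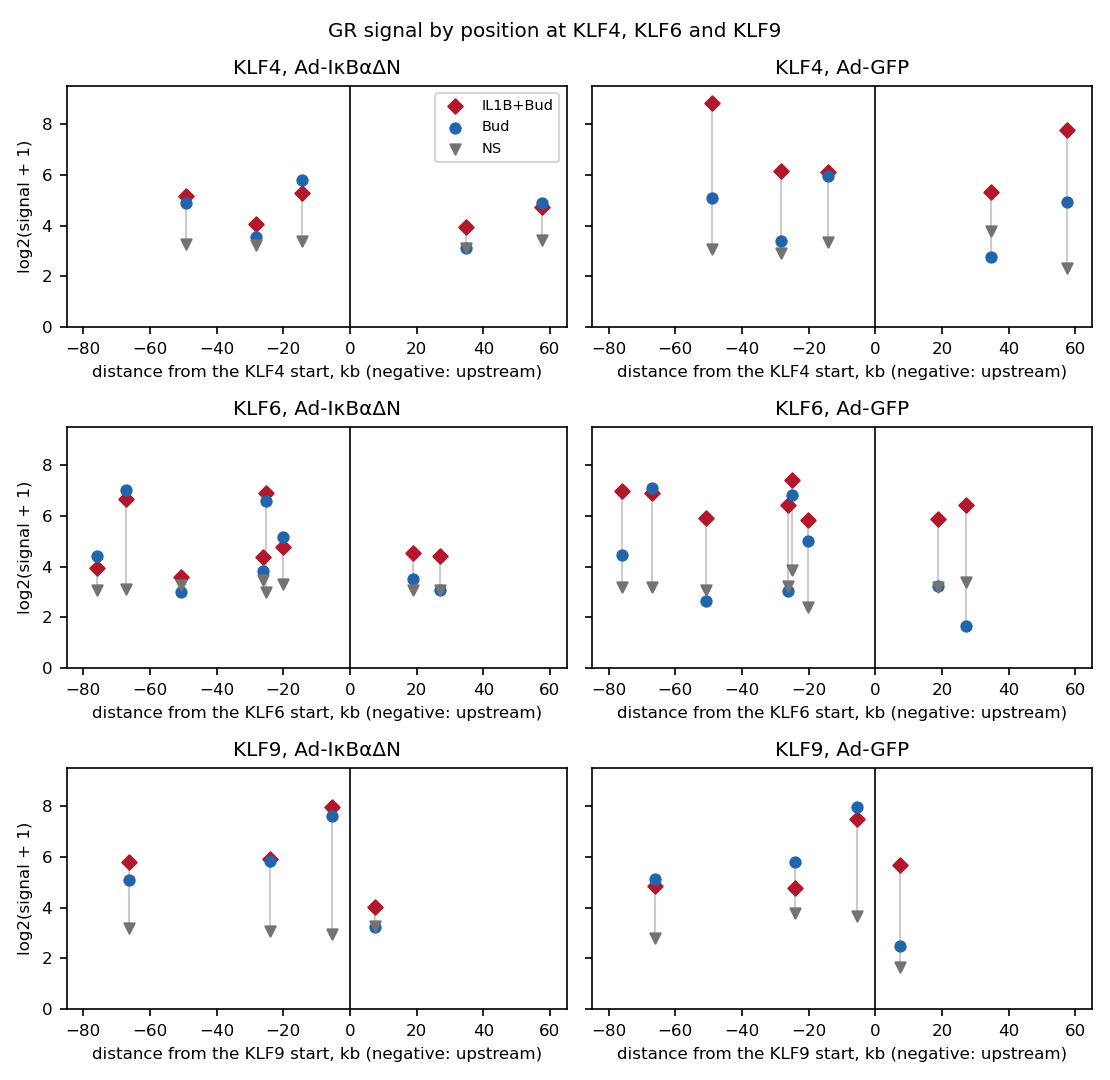
Log2(signal + 1) as deposited (vertical axis, 1 value per region and group) against distance from the gene start in kb (negative upstream) for KLF4, KLF6 and KLF9, with 1 panel per gene and virus, diamonds for IL1B+Bud, circles for Bud and triangles for NS. In Ad-GFP cells the IL1B+Bud points lie far above the Bud points at some positions (signal 453 with IL1B+Bud, 33.0 with Bud at 49.1 kb upstream of KLF4) and below them at others (26.3 with IL1B+Bud, 55.3 with Bud at 24.1 kb upstream of KLF9).

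KLF2, which in vascular endothelium restrains inflammatory genes, had 1 linked region, 31.3 kb upstream (chr19:16293367-16293766) in an exon of the long non-coding RNA gene KLF2-DT. GR signal was 27.0 with IL1B+Bud, 34.6 with Bud and 7.67 with NS in Ad-IκBαΔN cells, and 142 with IL1B+Bud, 40.8 with Bud and 8.19 with NS in Ad-GFP cells. Signal was similar with Bud alone in both viruses, and the IL1B+Bud groups lay on opposite sides of it. Added IL1B gave -0.35 in Ad-IκBαΔN cells (-0.90 to -0.35) and 1.78 in Ad-GFP cells (0.21 to 1.78). No GRE, κB or AP-1 match was found in this region, which says only that these letters are not in its 400 bp.

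KLF6, a tumour suppressor that is induced by tissue injury, had the most linked regions. In Ad-GFP cells 5 of the 8 were 2-fold higher with added IL1B as deposited. At 67.1 kb upstream (chr10:3852134-3852533, intergenic, with an AP-1 match), GR signal was 101 with IL1B+Bud, 129 with Bud and 7.73 with NS in Ad-IκBαΔN cells, and 119 with IL1B+Bud, 136 with Bud and 8.19 with NS in Ad-GFP cells. At 25.1 kb upstream (chr10:3810141-3810540, in an intron of a long non-coding RNA gene) it was 119.8 with IL1B+Bud, 95.9 with Bud and 6.95 with NS in Ad-IκBαΔN cells, and 168, 113 and 13.7 in Ad-GFP cells in the same order. Both regions were high in all 4 budesonide-treated groups. Bud against NS gave 3.90 (1.98 to 3.90) in Ad-IκBαΔN cells and 3.90 (1.65 to 3.90) in Ad-GFP cells at the first. At the second it gave 3.61 (2.24 to 3.61) in Ad-IκBαΔN cells and 2.95 (0.27 to 2.95) in Ad-GFP cells, where quantile normalization took it below 2-fold. The region 20.1 kb upstream, also with an AP-1 match, had 26.1, 34.6 and 8.94 with IL1B+Bud, Bud and NS in Ad-IκBαΔN cells, and 56.5, 31.2 and 4.24 in Ad-GFP cells.

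The other 5 KLF6 regions were 2-fold higher with added IL1B in Ad-GFP cells. The largest such difference of all KLF regions as deposited was at 27.1 kb downstream of the start (chr10:3757979-3758378, in an exon of a long non-coding RNA gene). GR signal there was 20.5 with IL1B+Bud, 7.49 with Bud and 7.32 with NS in Ad-IκBαΔN cells, and 84.3 with IL1B+Bud, 2.15 with Bud and 9.36 with NS in Ad-GFP cells. Added IL1B gave 4.76 in Ad-GFP cells (2.47 to 4.76) and 1.34 in Ad-IκBαΔN cells (0.79 to 1.34), and the low signal with Bud in Ad-GFP cells enters the first value. The region 18.8 kb downstream of the start was the other one called higher in both viruses, with 22.0, 10.3 and 7.39 with IL1B+Bud, Bud and NS in Ad-IκBαΔN cells, and 57.7, 8.40 and 8.18 in Ad-GFP cells. The upstream regions at 76.0, 50.7 and 26.2 kb had 14.5, 11.2 and 19.9 with IL1B+Bud in Ad-IκBαΔN cells, against 125, 60.1 and 86.0 with IL1B+Bud in Ad-GFP cells. In Ad-GFP cells the lowest added-IL1B difference over the 4 scalings was 0.97, 1.29 and 1.49 at these 3, 0.91 at 18.8 kb and 2.47 at 27.1 kb downstream, so 2 of the 5 were below 2-fold in at least 1 scaling. The region at 76.0 kb upstream was also 2-fold higher with Bud than with NS as deposited. Its signal was 20.1 and 7.47 in Ad-IκBαΔN cells, a difference of 1.32 (-0.05 to 1.32). In Ad-GFP cells it was 20.7 and 8.18, a difference of 1.24 (-0.20 to 1.24).

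Neighbouring KLF6 regions could differ in their values. The regions at 26.2 and 25.1 kb upstream lie in the same long non-coding RNA gene, and with Bud their signal was 13.0 and 95.9 in Ad-IκBαΔN cells and 7.23 and 113 in Ad-GFP cells. Added IL1B gave 3.40 (1.49 to 3.40) at the first in Ad-GFP cells and 0.57 at the second, where the sign turned with the scale (-1.0 to 0.57). Over the 8 regions the extremes of this comparison in Ad-GFP cells lay 4.95 apart on the log2 scale (3.12 to 4.96), the widest of any KLF locus as deposited. KLF6 also had the most regions, which leaves more room for a wide span.

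**Figure D4:**
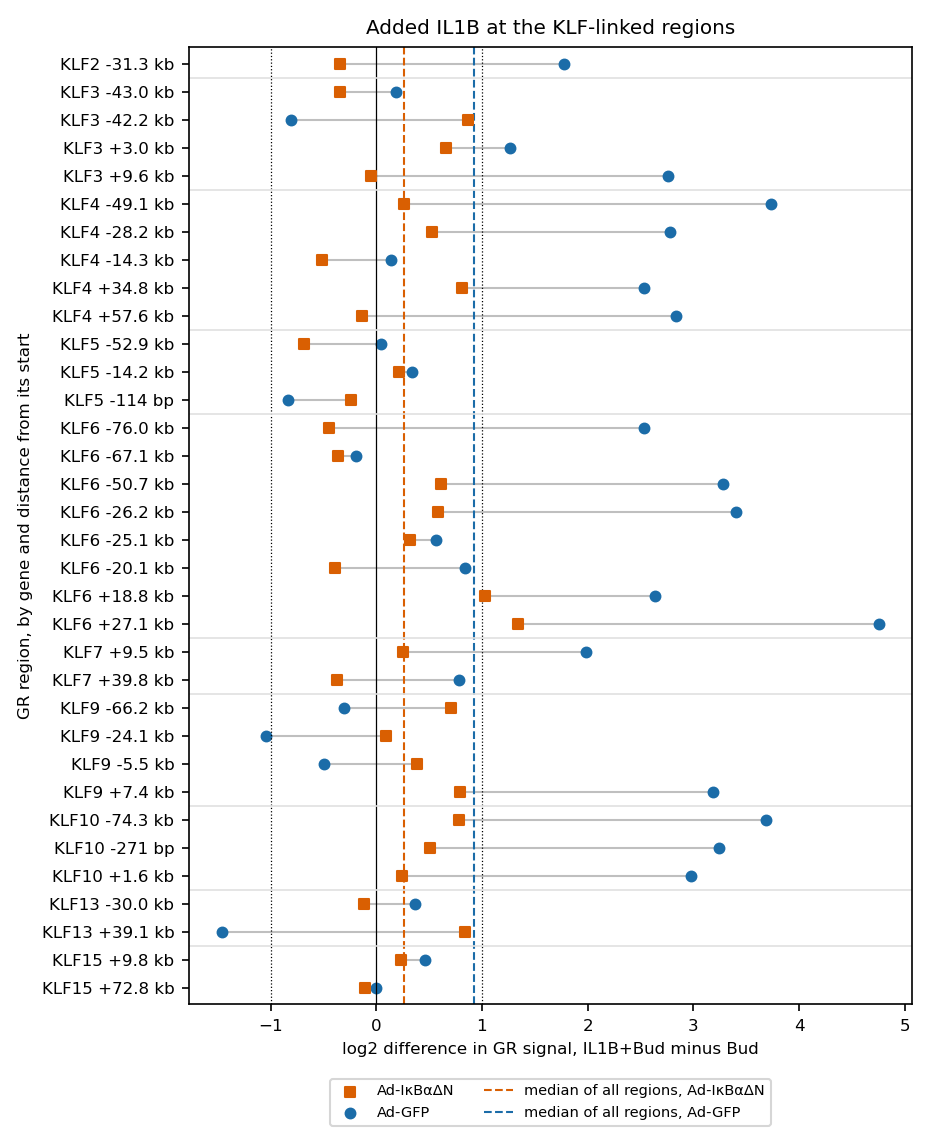
Added-IL1B difference (horizontal axis, log2, IL1B+Bud minus Bud, as deposited, 1 value per group) at each KLF-linked region (rows), with squares for Ad-IκBαΔN, circles for Ad-GFP, a grey line joining them, dashed lines at the medians of all regions and dotted lines at the 2-fold limits. The squares lie between -0.68 and 1.34 and the circles between -1.46 and 4.76, and in Ad-GFP cells the sign of 10 of the 34 circles turned with the scale.

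KLF3, a repressor of the family, also had added-IL1B differences of both signs in Ad-GFP cells. At 42.2 kb upstream (chr4:38621804-38622203, in an intron of KLF3-AS1), where the GRE match has the single substitution T13C, GR signal was 39.4 with IL1B+Bud, 21.1 with Bud and 6.76 with NS in Ad-IκBαΔN cells. In Ad-GFP cells it was 13.8 with IL1B+Bud, 24.9 with Bud and 5.99 with NS. The IL1B+Bud values lay on opposite sides of those with Bud, by 0.87 in Ad-IκBαΔN cells (0.31 to 0.87) and -0.81 in Ad-GFP cells (-2.21 to -0.81). The adjacent region at 43.0 kb upstream had 24.7, 31.6 and 8.72 with IL1B+Bud, Bud and NS in Ad-IκBαΔN cells, and 38.0, 33.2 and 9.87 in Ad-GFP cells. In the KLF3 gene, 9.6 kb downstream of the start (chr4:38673600-38673999, intron), signal was 14.0 with IL1B+Bud, 14.6 with Bud and 8.02 with NS in Ad-IκBαΔN cells, and 112 with IL1B+Bud, 15.6 with Bud and 4.60 with NS in Ad-GFP cells. Here the Ad-GFP cells given IL1B+Bud stood alone, with an added-IL1B difference of 2.77 (1.21 to 2.77), against -0.05 in Ad-IκBαΔN cells (-0.59 to -0.05). The intronic region 3.0 kb downstream of the start had 35.9, 22.3 and 7.26 in Ad-IκBαΔN cells and 59.2, 23.9 and 4.95 in Ad-GFP cells, and its added-IL1B difference of 1.27 in Ad-GFP cells became -0.27 with signal divided by the step.

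KLF10, first known as a gene induced by transforming growth factor β, had 3 regions of 1 kind. GR signal 271 bp upstream of the start was 19.6 with IL1B+Bud, 13.5 with Bud and 8.43 with NS in Ad-IκBαΔN cells, and 84.0 with IL1B+Bud, 7.97 with Bud and 13.5 with NS in Ad-GFP cells. The region 1.6 kb downstream of the start, over an untranslated part of the KLF10 transcript, had 16.6, 13.8 and 9.07 with IL1B+Bud, Bud and NS in Ad-IκBαΔN cells, and 77.2, 8.92 and 9.65 in Ad-GFP cells. The intergenic region 74.3 kb upstream had 15.1, 8.35 and 8.28 in Ad-IκBαΔN cells in the same order, and 67.3, 4.29 and 11.3 in Ad-GFP cells. At all 3, Ad-GFP cells given Bud had less signal than untreated Ad-GFP cells and those given IL1B+Bud had the most. The added-IL1B difference in Ad-GFP cells was between 2.98 and 3.69, a spread of 0.71 on the log2 scale (0.37 to 0.72). This was narrower than at KLF3, KLF4, KLF6 or KLF9, which have more regions and so more room for spread. At the members with 3 regions or fewer, the spread was 1.17 for KLF5, 1.21 for KLF7, 1.83 for KLF13 and 0.46 for KLF15. The regions 271 bp and 74.3 kb upstream held κB matches, and the one in the gene held an AP-1 match.

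KLF5, an activator of epithelial proliferation, had a region that covers the RefSeq promoter window of the gene in full (GRCh38.p14, 250 bases before to 50 after the start). At this region, 114 bp upstream of the start (chr13:73054663-73055062), GR signal was 23.9 with IL1B+Bud, 28.5 with Bud and 8.14 with NS in Ad-IκBαΔN cells, and 17.3 with IL1B+Bud, 31.6 with Bud and 3.60 with NS in Ad-GFP cells. Budesonide-treated groups were all above the untreated ones, by 1.69 in Ad-IκBαΔN cells (0.12 to 1.69) and 2.83 in Ad-GFP cells (1.42 to 2.83) for Bud alone. Added IL1B gave -0.24 in Ad-IκBαΔN cells (-0.80 to -0.24) and -0.83 in Ad-GFP cells (-2.27 to -0.83). The region 14.2 kb upstream had 36.7, 31.4 and 6.70 with IL1B+Bud, Bud and NS in Ad-IκBαΔN cells, and 46.9, 36.9 and 3.18 in Ad-GFP cells. The region 52.9 kb upstream, in an intron of PIBF1, had 12.5, 20.6 and 7.83 in Ad-IκBαΔN cells and 27.8, 26.9 and 6.09 in Ad-GFP cells. None of the 3 KLF5 regions was 2-fold higher with added IL1B as deposited, in either virus.

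KLF7, best known from neuronal development, had 2 regions within the gene. In the intron, 9.5 kb downstream of the start (chr2:207164181-207164580), GR signal was 45.9 with IL1B+Bud, 38.5 with Bud and 7.22 with NS in Ad-IκBαΔN cells, and 172 with IL1B+Bud, 42.5 with Bud and 4.44 with NS in Ad-GFP cells. Signal was higher with Bud than with NS in both viruses, and higher again with IL1B+Bud in Ad-GFP cells. Bud against NS gave 2.26 in Ad-IκBαΔN cells (0.90 to 2.26) and 3.00 in Ad-GFP cells (1.59 to 3.00). Added IL1B gave 0.25 in Ad-IκBαΔN cells, where the sign turned with the scale (-0.32 to 0.25), and 1.99 in Ad-GFP cells (0.42 to 1.99). The region 39.8 kb downstream of the start, over a coding exon and 195 bases of a second RefSeq promoter window of KLF7, had 17.1, 22.4 and 7.77 with IL1B+Bud, Bud and NS in Ad-IκBαΔN cells, and 40.1, 22.9 and 9.74 in Ad-GFP cells.

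Across the family, regions sorted by how they behaved under budesonide alone in Ad-GFP cells differed in what came with IL1B. Of the 23 that were 2-fold higher with Bud, 7 were 2-fold higher again with IL1B+Bud, 14 were within 2-fold and 2 were lower. Of the 8 within 2-fold of NS with Bud, 7 were higher with IL1B+Bud, and the 3 that were lower with Bud were all higher with IL1B+Bud. In the whole table, sorted the same way and in the same order, 1090 of 6217, 3288 of 3649 and 874 of 874 regions were higher with IL1B+Bud. Since Bud enters both comparisons, a low value with Bud raises one and lowers the other. In which groups a region needed signal to be listed is not known here. A region weak with Bud may have been listed for its signal with IL1B+Bud, so these counts may follow from that choice. The authors placed 20 of the 34 KLF regions (58.8%) in their increasing class, against 40.5% of all regions, 10 (29.4%) in the unchanged class, against 31.8%, and 4 (11.8%) in the decreasing class, against 27.8%. The rule behind these classes is not stated in the labels or the table, and the names did not match the added-IL1B difference in Ad-GFP cells at every region. Of the 20 increasing regions 16 were 2-fold higher by that difference, and the lowest had -0.30. Of the 10 unchanged regions 1 was 2-fold higher (1.78) and 2 were lower.

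By position, 2 of the 34 KLF-linked regions lay within 1 kb of the gene start and 22 beyond 20 kb. Of the 34, 21 lay upstream and 13 downstream, 8 lay in the member gene itself and 14 were intergenic. These positions were not counted over all regions, so they cannot be read as a trait of the KLF regions. The nearest regions on the far side of the 100 kb limit, both at KLF6, lay 102.8 and 104.9 kb from the start. In Ad-IκBαΔN cells they had 206.2 and 28.8 with IL1B+Bud, 239 and 23.9 with Bud and 8.61 and 7.58 with NS. In Ad-GFP cells they had 387 and 44.9 with IL1B+Bud, 275 and 24.6 with Bud and 9.30 and 7.14 with NS. The farthest regions inside the limit were those at 76.0 kb from KLF6 and 74.3 kb from KLF10, with the values given above. In all, 24 regions had a KLF member as their nearest start but lay outside the limit.

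GRE matches were found in 8 of the 34 KLF regions (23.5%), against 1580 of all regions (14.7%), and with at most 1 mismatch in 2 (5.88%), against 3.43%. κB matches were found in 4 (11.8%), against 21.3% of all regions, and AP-1 matches in 5 (14.7%), against 22.8%. The CACCC-type box that KLF proteins themselves bind, searched as CCNCNCCC on both strands, was found in 18 (52.9%), against 34.7%. It can overlap the GC boxes bound by SP factors. These counts are descriptions of letters in 400 bp, and no binding by NF-κB, AP-1 or KLF proteins was measured in them here.

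KLF regions with a GRE went both ways with added IL1B in Ad-GFP cells, from -1.46 in the KLF13 intron to 3.74 upstream of KLF4, with 2 of 8 higher and 1 lower. The median difference with added IL1B over the 8 GRE regions was 0.46 in Ad-IκBαΔN cells and -0.15 in Ad-GFP cells, and in Ad-GFP cells it became -1.19 after re-centring, -1.0 with quantile normalization and -1.62 with signal divided by the step. Over the 26 without a GRE it was 0.15 in Ad-IκBαΔN cells and 1.88 in Ad-GFP cells as deposited. The other scales were not applied to regions without a GRE, so these 2 values compare only with the deposited 0.46 and -0.15. Among all regions with a GRE the median was 0.27 in Ad-IκBαΔN cells and -0.16 in Ad-GFP cells (-1.65 to -0.16 over the scalings). Among all regions without one it was 0.26 in Ad-IκBαΔN cells and 1.34 in Ad-GFP cells, again as deposited only. All 4 κB regions (at KLF4, KLF9 and both at KLF10) were 2-fold higher in Ad-GFP cells, with a median of 3.47 (1.5 to 3.47), and 0 of 4 were in Ad-IκBαΔN cells, with a median of 0.64. Of all 2290 κB regions, 92.5% were 2-fold higher in Ad-GFP cells and 19.0% in Ad-IκBαΔN cells. A κB match was lacking in 13 of the 17 KLF regions that were higher in Ad-GFP cells (76.5%), against 3134 of 5252 such regions of the whole table (59.7%).

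For the lead region, the one with the highest value in any group, of the 4 members whose lead values were highest (KLF4, KLF9, KLF7 and KLF13), the most similar regions of other genes over the 6 groups were found by the root mean square difference of the log2 values. The region nearest in values to the KLF9 one at 5.5 kb upstream was at GALNT4 (0.13), followed by B4GALT1 (0.19) and GTF2IRD1 (0.22). For the KLF13 intronic region they were at PKP2 (0.14), TNS2 (0.24) and ZBTB16 (0.26), and for the KLF7 intronic region at MDM2 (0.16), TSPAN14 (0.24) and TRIB1 (0.27). The KLF4 region at 49.1 kb upstream was most like 1 at a gene known only by an identifier (0.22), then SMAD3 (0.33) and CP (0.35).

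Of 17 other KLF and SP genes, only KLF11, SP1, SP2 and SP4 had a linked region, with 1 each. Added IL1B was 2-fold higher at 1 of these 4 in Ad-IκBαΔN cells and at 2 in Ad-GFP cells. The KLF11 region, 6.6 kb from the start, had 17.3, 11.7 and 9.33 with IL1B+Bud, Bud and NS in Ad-IκBαΔN cells, and 82.6, 5.99 and 14.5 in Ad-GFP cells. It had the order of values seen at KLF10, with Bud lowest and IL1B+Bud highest in Ad-GFP cells. Of 16 regions at AP-1 and small MAF genes, 1 was 2-fold higher with added IL1B in Ad-IκBαΔN cells and 8 in Ad-GFP cells, and of 11 regions at C/EBP genes 1 was in Ad-IκBαΔN cells and 5 in Ad-GFP cells. The KLF share in Ad-GFP cells, 50%, was close to that of these lists and of the whole table, and no test of a difference between lists was made.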

How the data were processed

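GR ChIP-seq of A549 cells was analysed from the deposited table of log2 GR binding intensity, with 1 value per region and group. Per the submitters' processing notes, the build was GRCh38 (hg38) and the tools included Bowtie2 2.4.4 and SAMtools as well as MACS2 2.2.7.1, DiffBind 3.2, FastQC 0.10.1 and bcl2fastq. Neither the tool behind the intensities, nor the way a group's 2 libraries became 1 value, nor the scaling is stated there. The depth per library is unknown. Ad-IκBα in the table was taken as the virus labelled Ad-IκBαΔN. The deposited difference column equals the intensity minus that of the untreated group of the same virus. Values were read as log2(signal + 1), because signal multiplied by the region width (400 bp) gave multiples of 1 step size, within 0.0001 steps, in 5 of the 6 groups (in untreated Ad-GFP cells at 10739 of 10740 regions).

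Regions were linked to GENCODE v44 gene starts, counted at the 2-fold limit without any test between groups, and scanned for motifs in hg38 on both strands, in Python 3.11.15 with numpy 2.4.6, pandas 2.3.3 and matplotlib 3.10.9. The counting and scanning steps were tested on simulated data. Alternatives were a common median, quantile normalization, division by the step, log2(signal + 5), a 1.5-fold limit, a 50 kb limit, leaving out the lowest 25% of regions, and a stricter GRE. All 10 members were named, each with its lead region, the regions nearest a start, the extremes of a comparison and those whose response to added IL1B differed between viruses by at least 1. Members and lists were chosen with earlier results of these data known. Libraries made with the RELA antibody or from input chromatin were not used here.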

Additional observations from a re-analysis of the deposited data

Results flagged for a closer look

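At 7 of the 34 KLF-linked regions (20.6%), against 7.53% of all regions, the difference with added IL1B (IL1B+Bud against Bud) had opposite signs in Ad-IκBαΔN and Ad-GFP cells under every scaling tried and differed by at least 1 on the log2 scale as deposited. The other scalings lowered the median added-IL1B difference of all regions, from 0.92 to between -0.61 and -0.12 in Ad-GFP cells. In Ad-IκBαΔN cells it went from 0.26 to between -0.29 and 0.14. A negative sign as deposited was therefore hardly put to a test by them, and only the positive sign was. With 1 value per group this difference between viruses was not tested. The response in Ad-IκBαΔN minus that in Ad-GFP cells was 2.30 in the KLF13 intron 39.1 kb from the start, 1.68 at 42.2 kb upstream of KLF3 and 1.01 at 66.2 kb upstream of KLF9, where it was 0.92 with log2(signal + 5). These 3 regions, each with a GRE match, had more signal with added IL1B in Ad-IκBαΔN cells and less in Ad-GFP cells. It was -2.98 at 76.0 kb upstream of KLF6, -2.97 at 57.6 kb downstream of the KLF4 start, -2.82 at 9.6 kb downstream of the KLF3 start and -2.12 at 31.3 kb upstream of KLF2. At these 4 regions, none with a GRE or κB match, the signs were the other way round. Added IL1B gave -0.45, -0.13, -0.05 and -0.35 in Ad-IκBαΔN cells in the same order, all within 2-fold. In Ad-GFP cells it gave 2.53, 2.84, 2.77 and 1.78, so most of the difference lay in the Ad-GFP values.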

How the results depend on the processing

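No paired analysis was possible because the table holds 1 value per group, and for the same reason leaving out each replicate could not be run. The scale between groups mattered most. With the groups re-centred to a common median, the KLF median became 0.14 for Bud against NS in Ad-IκBαΔN and 0.58 in Ad-GFP cells, 0.014 for added IL1B in Ad-GFP cells, -0.21 for Ad-IκBαΔN against Ad-GFP with IL1B+Bud and -0.27 for the response difference. Quantile normalization gave -0.030 (a turned sign), 0.51, 0.090, -0.23 and -0.31 for these 5 in the same order. Division by the step gave -0.31 for added IL1B in Ad-IκBαΔN cells and -0.48 in Ad-GFP cells, turning the sign, -0.17 for Ad-IκBαΔN against Ad-GFP with IL1B+Bud and -0.22 for the response difference. It took the region 3.0 kb downstream of the KLF3 start to -0.27 for added IL1B in Ad-GFP cells. Over the 4 scalings the sign of Bud against NS differed at 17 of the 34 regions in Ad-IκBαΔN cells and at 8 in Ad-GFP cells. Among differences of at least 2-fold as deposited, it turned in Ad-IκBαΔN cells with quantile normalization at KLF3 43.0 kb (-0.032), KLF4 49.1 kb (-0.16) and 57.6 kb (-0.67), KLF5 52.9 kb (-0.064), KLF6 20.1 kb (-0.027) and KLF13 30.0 kb (-1.12), and with re-centring at KLF5 52.9 kb (-0.069) and KLF6 76.0 kb (-0.047). In Ad-GFP cells it turned with quantile normalization at 43.0 kb upstream of KLF3 (-0.10), 76.0 kb upstream of KLF6 (-0.20), 39.8 kb downstream of the KLF7 start (-0.44) and 24.1 kb upstream of KLF9 (-0.20), and with re-centring at the KLF6 (-0.17) and KLF7 (-0.25) ones. Of the 238 single-region differences, 4 called ones turned sign with re-centring, 10 with quantile normalization, 1 with division by the step and 0 with log2(signal + 5). With a 1.5-fold limit 10 regions were higher and 1 lower with added IL1B in Ad-IκBαΔN cells, 4 were lower in Ad-GFP cells, and 5 were higher in Ad-IκBαΔN than in Ad-GFP cells with Bud. Leaving out the lowest 25% of regions left 1 region higher with added IL1B in Ad-IκBαΔN cells and 1 lower with Bud in Ad-GFP cells, of 29. A GRE with at most 1 mismatch was found in 5.88% of KLF regions. The cause of these shifts beyond the change of scale was not tested, and the depth, which limits what low signals can show, is unknown.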
